A study of Mus musculus with 9 samples.

Results

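Matrix metalloproteinases (MMPs) and the tissue inhibitors of metalloproteinases (TIMPs) were described in the brain RNA of 9 mice by the 10 genes Mmp2, Mmp9, Mmp14, Mmp16, Mmp17, Mmp24, Timp1, Timp2, Timp3, and Timp4. These genes were picked by symbol, 10 of the 38621 genes listed, by a rule that used no measured value. Earlier results of these data were known when they were chosen. All mice were male C57BL/6 of an age not given, in groups named sham, ICH, and feb with 3 mice per group. The ICH mice had 30 μl of their own whole blood injected into the brain as a model of intracerebral hemorrhage. The feb mice received febuxostat, a xanthine oxidase inhibitor used against gout, at 50 mg/kg through a stomach tube on each of 5 days, followed by the same blood injection. The sham mice are untreated according to the labels, whereas the methods describe a saline injection. No group received febuxostat without blood. The RNA came from brain tissue, and neither the dissected region nor the time after injection was given for these samples.

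MMPs are secreted or membrane-bound enzymes that hold a zinc ion in their active site and cut extracellular matrix, basement membrane, and cell surface proteins. They are made as inactive precursors, and TIMPs block the active enzymes by pushing their N-terminal cysteine onto the zinc. The gelatinases Mmp2 and Mmp9 cut collagen IV and tight junction proteins, and Mmp9 in particular is known for opening the blood-brain barrier (BBB) after bleeding. Mmp14, Mmp16, and Mmp24 are membrane-type MMPs held by a transmembrane segment, and Mmp17 is held by a lipid anchor. Mmp14 together with Timp2 also activates the precursor of Mmp2.

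The bases that code for these contact points are shown because they define both families. The protease stretch was found in the longest coding transcript of each gene (GENCODE release M21, build GRCm38) as the codons of histidine, glutamate, any 2 residues, histidine, any 2 residues, glycine, any 2 residues, and histidine, and each transcript held it 1 time. Capitals mark the codons of the 3 histidines that bind the zinc.
Mmp2 (chr8:92839279-92839311, plus strand, exon 8): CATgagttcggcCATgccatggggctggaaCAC
Mmp9 (chr2:164951133-164951165, plus strand, exon 8): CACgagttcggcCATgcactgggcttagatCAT
Mmp14 (chr14:54437627-54437659, plus strand, exon 5): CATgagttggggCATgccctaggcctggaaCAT
Mmp16 (chr4:18051748-18051780, plus strand, exon 5): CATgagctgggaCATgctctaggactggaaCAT
Mmp17 (chr5:129596597-129596629, plus strand, exon 5): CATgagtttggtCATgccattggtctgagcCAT
Mmp24 (chr2:155807427-155807459, plus strand, exon 5): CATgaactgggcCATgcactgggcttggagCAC

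The site lies in exon 8 in both gelatinases and in exon 5 in the 4 membrane-type genes. Mmp14 and Mmp16 share 29 of the 33 bases, and Mmp17 and Mmp24, the pair of membrane-type genes with the highest RNA levels, share 20. In the TIMPs the stretch was found as the codons of cysteine, any residue, cysteine, any residue, proline, any residue, histidine, proline, and glutamine. Capitals mark the 2 cysteine codons, of which the first gives the N-terminal residue of the mature inhibitor.
Timp1 (chrX:20871111-20871137, plus strand, exon 2): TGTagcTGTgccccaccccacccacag
Timp2 (chr11:118354986-118355012, minus strand, exon 1): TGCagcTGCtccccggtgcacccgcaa
Timp3 (chr10:86300923-86300949, plus strand, exon 1): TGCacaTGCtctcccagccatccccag
Timp4 (chr6:115251665-115251691, minus strand, exon 1): TGCagcTGTgcgcctgcgcacccccag

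Timp1 and Timp4 share 21 of these 27 bases, and Timp1 and Timp3 share 16. Timp1, Timp3, and Timp4, but not Timp2, lie within or across synapsin genes, which code for synaptic vesicle proteins, on the opposite strand. Timp1 lies within a single gap between exons of Syn1. Timp3 shares 1733 exon bases (21.3% of its exon length) with Syn3, and Timp4 shares 90 (1.53%) with Syn2. Of the proteases, Mmp24 shares 637 exon bases (13.6%) with BC029722, also on the opposite strand. The library kit keeps strand, but whether the counting used it is not given in the sources used here, so reads from these shared stretches cannot be assigned with certainty.

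Between 23065757 and 29538009 reads were counted on genes in each mouse. Levels are given as RPKM, reads scaled to exon length and to the reads counted in that mouse, so they can be compared between genes per length. Differences are log2 fold changes of (RPKM + 0.1), which understate the change of genes near 0.1, and were tested with limma over 29025 genes with at least 0.1 RPKM in at least 3 mice. All 10 genes passed this filter, and Mmp9 reached 0.1 RPKM in only 5 of the 9 mice. A gene was called when its unadjusted p-value was under 0.05 and its fold change over 2. Adjusted p refers to Benjamini-Hochberg adjustment across the whole table. With 3 mice against 3, an exact permutation test cannot give a two-sided p below 0.1.

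Some libraries stood apart within their groups. Between mice of 1 group the chi-square of the recovered reads per gene was 43.8 and 21.3 for the pairs with sham replicate 2 against 13.8 for the other sham pair, 28.2 and 32.4 with feb replicate 2 against 12.7, and 18.0 and 25.6 with ICH replicate 2 against 14.9. In ICH replicate 2, the summed level of 5 reactive astrocyte markers (Gfap, Vim, Lcn2, Serpina3n, and Cd44) was 722.5 RPKM, against 69.7 to 198.0 RPKM in the other 8 mice. Values without single mice are given beside many of the results that they move. The groups also differed in brain region markers. The summed level of 4 cortex markers was 9.90 to 22.3 RPKM in the sham mice, 19.0 to 45.6 in the ICH mice, and 26.8 to 33.9 in the feb mice, and 3 of the 4 were called higher in ICH than in sham mice. The summed level of 8 choroid plexus markers was 365.3 to 1035 RPKM in sham, 458.4 to 967.4 in ICH, and 30.6 to 88.4 in feb mice. Neuron markers (4 genes) summed to 368.8 to 447.2 RPKM over all mice. In ICH over sham mice 3 of these 4 were higher, with a median log2 fold change of 0.14. Of them, 2 had an unadjusted p under 0.05 in limma (12.3% of all genes), and 0 were called. The 5 erythrocyte markers summed to 123.8 RPKM in ICH replicate 1, 26.7 to 40.6 in the other ICH and the sham mice, and 17.1 to 21.6 in the feb mice, with 0 called in ICH over sham mice and 4 called lower in feb than in ICH mice. In such bulk RNA, fewer cells of a type and less RNA per cell cannot be told apart.

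The levels spanned a wide range with the inhibitor Timp2 at the top and the protease Mmp9 at the bottom. Over all 9 mice the mean level was 58.1 RPKM for Timp2, 16.2 for Timp3, 11.4 for Mmp24, 9.63 for Mmp17, 5.54 for Mmp16, 5.16 for Timp4, 3.31 for Timp1, 2.41 for Mmp14, 0.905 for Mmp2, and 0.131 for Mmp9. In the sham mice the neighbours in this order whose ranges overlapped were Timp4 and Mmp16, and Mmp14 and Timp1. In the ICH mice Mmp17 stood above Mmp24 with no overlap (13.4 to 14.98 against 11.3 to 12 RPKM), whereas it lay below Mmp24 with no overlap in the sham mice (5.19 to 10.1 against 10.3 to 11.99) and in the feb mice (7.54 to 8.36 against 10.7 to 11.4).

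**Figure D1:**
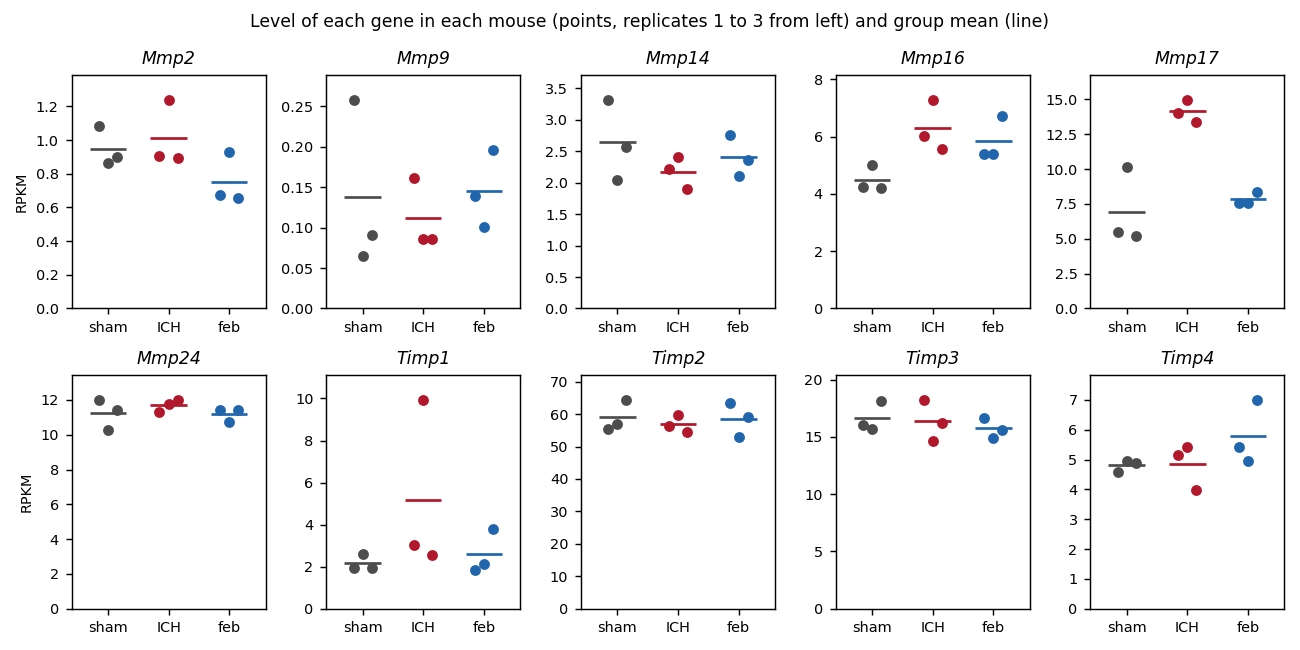
RPKM (vertical axes, each starting at 0) of the 10 genes in each mouse. Points are mice in replicate order and lines are group means; the 3 ICH mice are separate from all sham and feb mice for Mmp17, and 1 ICH mouse lies far above the others for Timp1.

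Mmp17 was the 1 gene of the 10 called between ICH and sham mice. It codes for the lipid-anchored MMP and is known to be expressed in neurons (chr5:129584169-129611099). Its level was 5.49, 10.1, and 5.19 RPKM in sham replicates 1 to 3, 14.0, 14.98, and 13.4 RPKM in the ICH mice, and 7.55, 7.54, and 8.36 RPKM in the feb mice, from 965 to 2608 reads. Every ICH mouse was higher than every other mouse, and sham replicate 2 was the highest of the remaining 6. Group means were 6.94 ± 2.78 RPKM for sham, 14.1 ± 0.813 RPKM for ICH, and 7.82 ± 0.469 RPKM for feb (SD, n = 3 each).

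Mmp17 rose 2.12-fold in ICH over sham mice (log2 fold change 1.08, SE 0.223, limma unadjusted p = 0.001035, adjusted p = 0.286). In this comparison 2.53% of all genes tested were called. The fold change lies close to the limit of 2, and Mmp17 was no longer called without sham replicate 1 (0.95), without sham replicate 3 (0.91), with a pseudocount of 1 (0.98), or with samples scaled to equal medians (0.97). Its unadjusted p stayed under 0.05 in all 19 alternatives tried, and its adjusted p ranged down to 0.019, which was reached without sham replicate 2. Without ICH replicate 2 the log2 fold change was 1.04.

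In feb mice the level of Mmp17 was lower than in ICH mice by 0.846 on the log2 scale, a ratio of 0.556 (SE 0.223, limma unadjusted p = 0.004637, adjusted p = 0.288). This difference did not reach 2-fold, so Mmp17 was not called. Both comparisons use the same 3 ICH mice. Between feb and sham mice the log2 fold change of Mmp17 was 0.24 (95% interval -0.27 to 0.74), so a difference of up to 1.68-fold is within the interval. Without sham replicate 2 it was 0.54 (limma unadjusted p = 0.000478), and it was 0.10 without sham replicate 1 and 0.06 without sham replicate 3.

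Region markers also differed between the groups, but did not follow Mmp17 in every mouse. Sham replicate 2 had the highest Mmp17 of its group (10.1 RPKM) and the lowest summed cortex markers (9.90 RPKM). Sham replicate 1 had the highest cortex sum of its group (22.3 RPKM) with 5.49 RPKM of Mmp17. Of the 4 cortex markers, 3 were called higher in ICH over sham mice (Tbr1, Neurod6, and Emx1) with a list median of 1.604 on the log2 scale, and 2 (Tbr1 and Emx1) were called lower in feb than in ICH mice with a list median of -0.46. Without ICH replicate 2, Tbr1 and Emx1 were called higher (median 1.36) and Tbr1 was called lower (median -0.35). Of the 5 thalamus markers, 1 (Tcf7l2) was called lower in ICH mice, and 0 without ICH replicate 2, with summed levels of 131.5 to 192.0 RPKM in sham, 30.7 to 143.0 in ICH, and 72.5 to 175.7 in feb mice. The summed level of 6 striatum markers was 38.8, 295.1, and 105.6 RPKM in sham replicates 1 to 3. It was 130.9, 223.8, and 299.0 RPKM in the ICH mice, and 229.3, 93.6, and 197.4 RPKM in the feb mice. Among sham mice the highest striatum sum belonged to the mouse with the highest Mmp17 (10.1 RPKM). Among ICH mice it belonged to the mouse with the lowest Mmp17 (13.4 RPKM). Among feb mice it belonged to replicate 1, with 7.55 RPKM of Mmp17 against 8.36 RPKM in replicate 3. The part of the sampled regions in the Mmp17 difference was not tested. Single cortex markers differed from their sum. Tbr1 was at 4.62 to 6.49 RPKM in the ICH and 1.07 to 3.37 in the feb mice, and Emx1 at 1.43 to 2.32 and 0.553 to 1.09, both lower in feb mice without overlap as Mmp17 was, whereas Neurod6 was at 6.54 to 29.7 in the ICH and 14.8 to 21.4 in the feb mice. The 3 genes whose levels followed Mmp17 most closely over the 9 mice, of 17661 genes with a mean of at least 1 RPKM, were Kcnv1 (Pearson r = 0.987), Pcdha11 (0.986), and Rexo1 (0.986).

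Mmp16, a transmembrane MMP able to activate the precursor of Mmp2, was also higher in the mice given blood. Its level was 4.23, 5.01, and 4.21 RPKM in the sham mice, 6.02, 7.30, and 5.59 RPKM in the ICH mice, and 5.40, 5.41, and 6.72 RPKM in the feb mice. No sham mouse overlapped with the 6 injected with blood, and the ICH and feb ranges overlapped. The log2 fold change was 0.48 in ICH over sham mice (SE 0.138, limma unadjusted p = 0.007796, adjusted p = 0.345) and 0.37 in feb over sham mice (SE 0.138, limma unadjusted p = 0.0262, adjusted p = 0.565), both below 2-fold and so not called. Between feb and ICH mice it was -0.11 (95% interval -0.42 to 0.21). Without ICH replicate 2 the ICH over sham value was 0.37. The feb over sham difference had an unadjusted p under 0.05 in 15 of 19 alternatives, and not with equal medians or without sham replicate 1, sham replicate 3, or feb replicate 3 (0.27, limma unadjusted p = 0.0968).

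Mmp24, a membrane-type MMP found mainly in the nervous system, had the steadiest level of the proteases. It was 11.99, 10.3, and 11.4 RPKM in the sham mice, 11.3, 11.8, and 12 RPKM in the ICH mice, and 11.4, 10.7, and 11.4 RPKM in the feb mice. The highest mouse was 1.17-fold above the lowest, and all groups overlapped. The 95% interval of the ICH over sham log2 fold change was -0.12 to 0.24.

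Mmp14, the membrane-type MMP that partners with Timp2, had 3.32, 2.05, and 2.57 RPKM in the sham mice, 2.22, 2.41, and 1.90 RPKM in the ICH mice, and 2.76, 2.10, and 2.36 RPKM in the feb mice. The groups overlapped in every comparison, and the ICH over sham log2 fold change was -0.25 (95% interval -0.69 to 0.18), or -0.08 without sham replicate 1 and -0.42 without sham replicate 2.

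The gelatinases made up little of the protease RNA. Mmp2 was at 1.08, 0.863, and 0.897 RPKM in the sham mice, 0.909, 1.24, and 0.895 RPKM in the ICH mice, and 0.672, 0.928, and 0.656 RPKM in the feb mice. Its lowest values were in 2 feb mice, yet the groups overlapped, with a feb minus ICH log2 fold change of -0.39 (95% interval -0.86 to 0.08, limma unadjusted p = 0.0926). It was -0.25 without ICH replicate 2 and -0.53 without feb replicate 2 (limma unadjusted p = 0.0374). The genes most like Mmp2 over the mice were Fgfrl1 (Pearson r = 0.967), Serpinh1, a collagen chaperone (0.967), and Gm20634 (0.966). Beside it, the summed level of 6 meningeal fibroblast markers was 9.14 to 26.0 RPKM in sham, 10.96 to 23.4 in ICH, and 6.02 to 10.6 in feb mice, whose part in the Mmp2 levels was not tested.

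Mmp9 was close to the limit of detection. Its level was 0.258, 0.0649, and 0.0905 RPKM in the sham mice, 0.162, 0.0859, and 0.0863 RPKM in the ICH mice, and 0.139, 0.101, and 0.196 RPKM in the feb mice, from 6 to 27 reads per mouse. The highest value came from a sham mouse, and the groups overlapped throughout. The 95% interval of the ICH over sham difference in (RPKM + 0.1), which rests on the spread between mice, ran from 0.524-fold to 1.65-fold. Because Mmp9 lay near 0.1 RPKM, this interval understates the range of possible changes in its own level. Changes of Mmp9 RNA within this interval, and also larger ones, were thus not excluded. Markers of neutrophils, a known source of Mmp9, were low as well. The 7 neutrophil markers (S100a8, S100a9, Ngp, Ltf, Camp, Ly6g, and Cxcr2) summed to 0.782 to 1.32 RPKM in sham, 0.148 to 1.28 in ICH, and 0.546 to 1.02 in feb mice. Ly6g had no read in 8 of the 9 mice, and Ly6g, Cxcr2, S100a8, and Ltf did not pass the filter.

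Timp1, the inhibitor best known for its induction in injured and inflamed tissue, had the widest spread of the inhibitors. Its level was 1.94, 2.63, and 1.92 RPKM in the sham mice, 3.04, 9.93, and 2.54 RPKM in the ICH mice, and 1.83, 2.14, and 3.81 RPKM in the feb mice, from 43 to 232 reads. ICH replicate 2 was far above the other 8 mice, and ICH replicate 3 lay within the sham range. The log2 fold change was 0.96 in ICH over sham mice (SE 0.483, limma unadjusted p = 0.0796, adjusted p = 0.436) and -0.77 in feb over ICH mice (unadjusted p = 0.149, adjusted p = 0.579), so Timp1 was not called. Without ICH replicate 2 these values were 0.36 (limma unadjusted p = 0.275, adjusted p = 0.713) and -0.16 (unadjusted p = 0.605, adjusted p = 0.925), and without ICH replicate 3 the first was 1.32 and Timp1 was called.

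The mouse with the highest Timp1 was the one with the highest reactive astrocyte markers. ICH replicate 2 had 573.5 RPKM of Gfap, the astrocyte filament protein, against 54.5 to 160.0 in the other mice, and 5.51 RPKM of Cd44 against 0.374 to 0.829. Over the 5 reactive astrocyte markers, 0 were called in ICH over sham mice with limma (0 at an unadjusted p under 0.05), and their median log2 fold change was 0.90 with this mouse and 0.01 without it. The part of reactive astrocytes in the Timp1 level was not tested.

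**Figure D2:**
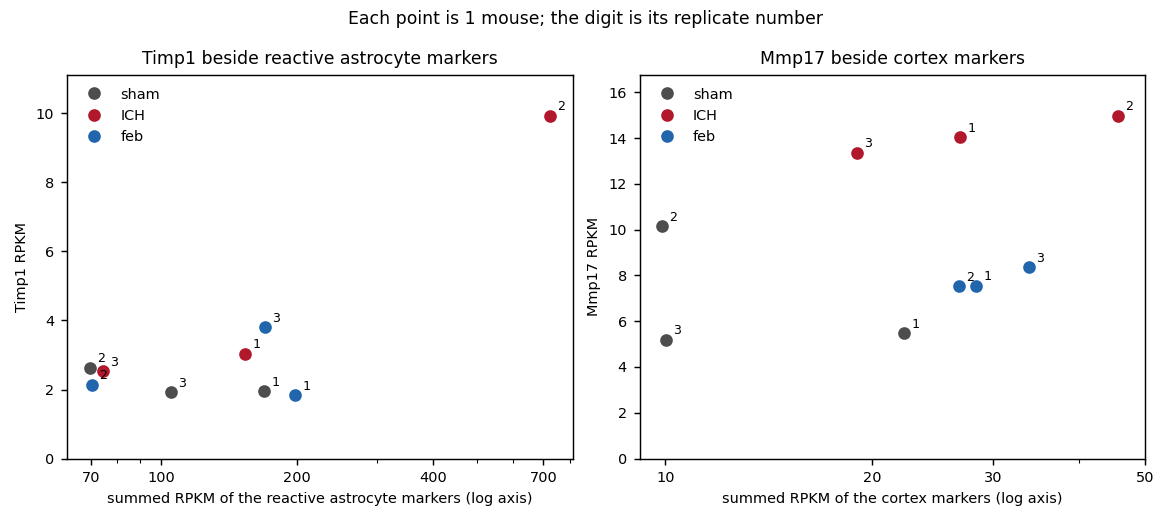
Timp1 RPKM against the summed RPKM of 5 reactive astrocyte markers (left) and Mmp17 RPKM against the summed RPKM of 4 cortex markers (right), with log horizontal axes. Each point is 1 mouse; ICH replicate 2 stands at 9.93 RPKM of Timp1 and 722.5 RPKM of the markers, and the feb mice have less Mmp17 than the ICH mice at cortex sums of 26.8 to 33.9 RPKM, of which Neurod6 gives 14.8 to 21.4 RPKM while Tbr1 and Emx1 are lower than in all ICH mice.

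The other 3 inhibitors differed little between the groups. Timp2, the main inhibitor RNA, was at 55.5, 57.1, and 64.4 RPKM in the sham mice, 56.35, 59.6, and 54.6 RPKM in the ICH mice, and 63.45, 52.8, and 59.1 RPKM in the feb mice. It made up 66.5% to 72.6% of the summed TIMP level, and the 95% interval of its ICH over sham log2 fold change was -0.26 to 0.16. Timp3, which binds to matrix and also inhibits ADAM proteases, was at 16.1, 15.65, and 18.1 RPKM in the sham mice, 18.2, 14.6, and 16.25 RPKM in the ICH mice, and 16.7, 14.9, and 15.6 RPKM in the feb mice. Groups overlapped for both genes in all 3 comparisons.

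Timp4, an inhibitor found in brain and heart, was at 4.60, 4.97, and 4.89 RPKM in the sham mice, 5.17, 5.43, and 3.98 RPKM in the ICH mice, and 5.43, 4.97, and 7.003 RPKM in the feb mice. All feb mice were above all sham mice, the nearest pair being 4.967 and 4.966 RPKM. The log2 fold change in feb over sham mice was 0.25 (SE 0.156, limma unadjusted p = 0.149, adjusted p = 0.667), and 0.11 without feb replicate 3. The synapsin genes beside Timp1, Timp3, and Timp4 were looked at as well. For Syn1, Syn2, and Syn3, limma called 0 in each comparison (0 at an unadjusted p under 0.05), and the largest log2 fold change was 0.34 for Syn2 in ICH over sham mice, and 0.13 without ICH replicate 2.

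Few of the 10 genes passed the test in any comparison. In ICH over sham mice, 1 of the 10 genes was called (2.53% of all genes), 2 had an unadjusted p under 0.05 (12.3% of all genes), 0 had an adjusted p under 0.05 (0.0241%), and 2 had groups without overlap (19.4%). Their median log2 fold change was 0.03, against 0.08 over all genes. In feb over ICH mice, limma called 0 (2.43%), 1 had an unadjusted p under 0.05 (11.1%), 0 an adjusted p under 0.05 (0.00689%), and 1 had no overlap (17.2%), with medians of -0.06 and -0.01. In feb over sham mice, limma called 0 (2.2%), 1 had an unadjusted p under 0.05 (8.54%), 0 an adjusted p under 0.05 (0.00345%), and 2 had no overlap (12.7%), with medians of 0.05 and 0.05. Limma with voom on the recovered reads called 1, 0, and 0 of the genes in the 3 comparisons.

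**Figure D3:**
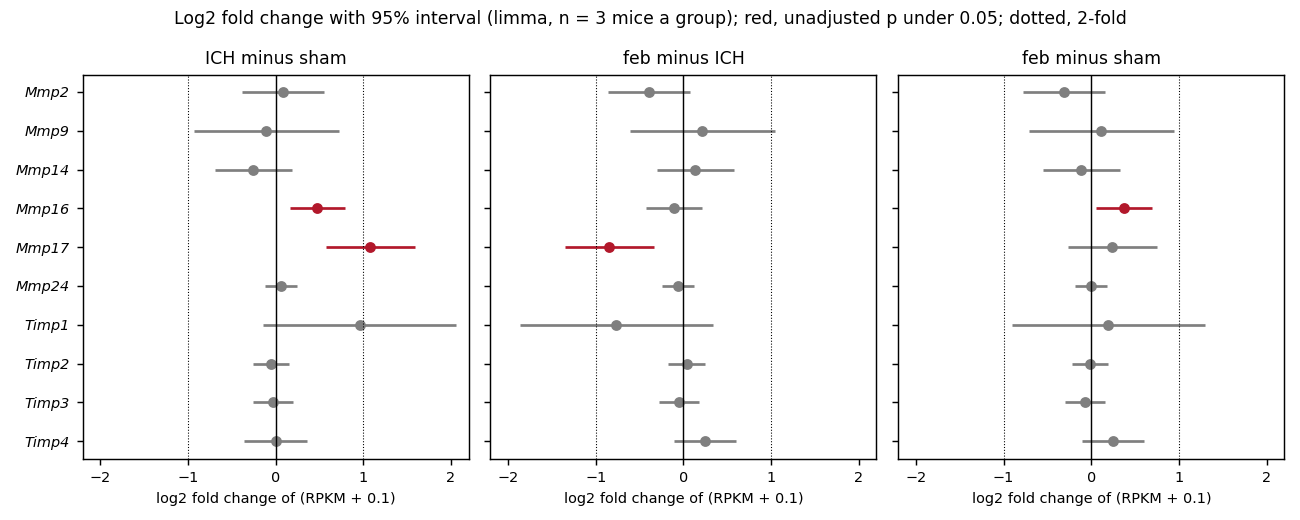
Log2 fold change of (RPKM + 0.1) with its 95% interval (lines) for the 10 genes in the 3 comparisons, with 3 mice a group. Red marks an unadjusted p under 0.05, which holds for Mmp16 and Mmp17 in ICH over sham, Mmp17 in feb over ICH, and Mmp16 in feb over sham mice.

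Because Mmp17 and Mmp16 are among the most abundant proteases, their differences carried the sum of the 6 MMP genes. This sum was 26.4, 28.4, and 24.4 RPKM in the sham mice, 34.7, 37.8, and 33.8 RPKM in the ICH mice, and 27.9, 26.8, and 29.7 RPKM in the feb mice. The ICH mice lay above all others, and 94.9% to 97.1% of the sum came from the 4 membrane-type genes in every mouse. Mmp17 gave 39.5% to 40.5% of the sum in the ICH mice, 20.8% to 35.7% in the sham mice, and 27.0% to 28.1% in the feb mice. The 4 TIMP genes summed to 82.6 ± 5.94 RPKM for sham, 83.3 ± 6.14 RPKM for ICH, and 82.6 ± 6.76 RPKM for feb (SD, n = 3 each). The ratio of the TIMP to the MMP sum was thus 2.96, 2.83, and 3.66 for sham, 2.39, 2.37, and 2.29 for ICH, and 3.13, 2.79, and 2.88 for feb replicates 1 to 3. All ICH ratios were below all others. These sums are descriptions of RNA and were not tested, and neither enzyme activity nor protein was measured here.

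**Figure D4:**
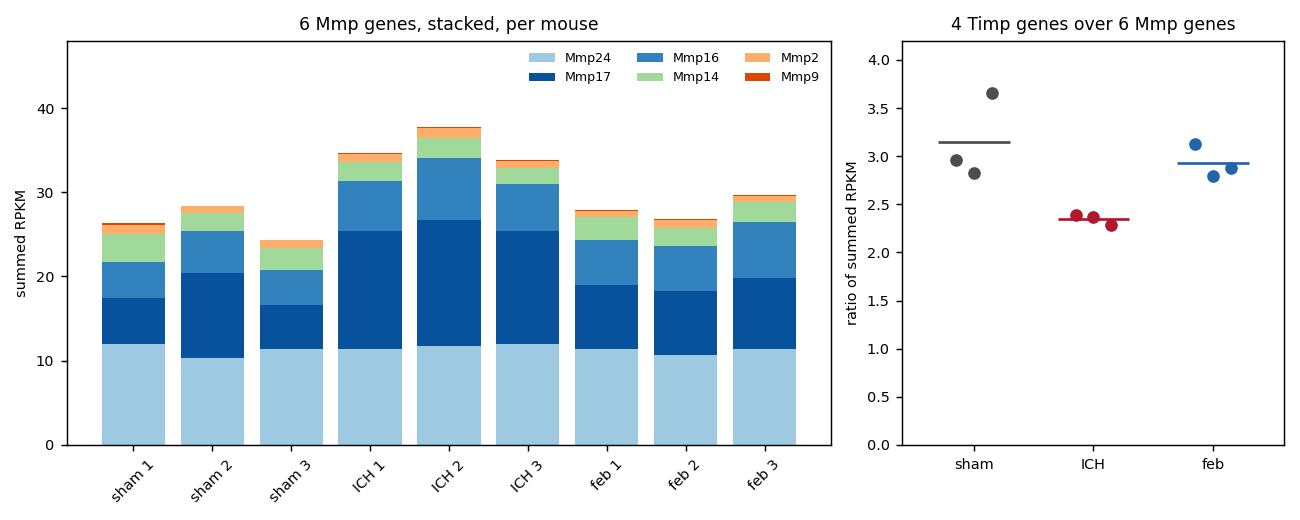
Summed RPKM of the 6 MMP genes per mouse, stacked by gene (left, bars from 0), and the ratio of the summed TIMP to the summed MMP level per mouse with group means as lines (right). The ICH bars reach 33.8 to 37.8 RPKM with a large Mmp17 part, and their ratios of 2.29 to 2.39 lie below those of all other mice. Mmp15 is not among the 6 genes.

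Over the 9 mice, the 45 pairs of genes were compared by correlation of log2(RPKM + 0.1), and 0 passed adjustment over the 45 pairs (4 had an unadjusted permutation p under 0.05). The closest pair was Mmp16 and Timp1 (Pearson r = 0.81, exact permutation p = 0.001188, adjusted p = 0.0535, and Spearman rho = 0.82, exact permutation p = 0.0108, adjusted p = 0.258). With the 2 mice most distant from the median Mmp16 level left out, r was 0.76. Next was Mmp16 and Mmp17 (r = 0.76, exact permutation p = 0.0181, adjusted p = 0.40, and rho = 0.80, exact permutation p = 0.0138), with r = 0.54 without those 2 mice. For the deviations from group means, r was 0.92 for Mmp16 and Timp1, higher than over all mice. For Mmp16 and Mmp17 it was 0.65, lower than over all mice.

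The genes most like each member, by Pearson r of log2(RPKM + 0.1) among genes with a mean of at least 1 RPKM, are given as a description. Mmp16 was followed most closely by Fam131a (0.989), Pik3r2 (0.984), and Strn4 (0.980), and Mmp14 by Nxph4 (0.979), Msh6 (0.957), and Snrpd1 (0.956). For Timp1 they were Edem2 (0.970), Tvp23a (0.967), and Syn2 (0.967), and for Timp4 Selenoo (0.964), Gspt2 (0.964), and Nprl3 (0.960). Mmp24 was followed by Tomm40 (0.932), Dad1 (0.900), and Yipf3 (0.884). Timp2 was followed by mt-Tt (0.925), Rpl39 (0.898), and Rpl17-ps5 (0.896), and Timp3 by Sugct (0.968), Dner (0.906), and Gm26759 (0.887). Mmp9, with its few reads, was matched by 4930551O13Rik (0.991), Gm37422 (0.961), and Smyd2 (0.942).

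The remaining MMP genes were counted next. Of 13 others in the table, 6 passed the filter. In ICH over sham, feb over ICH, and feb over sham mice, limma called 0 of them (2.53%, 2.43%, and 2.2% of all genes). At an unadjusted p under 0.05 there were 0, 0, and 1 (12.3%, 11.1%, and 8.54% of all genes). Mmp15, another transmembrane MMP, was at 7.51, 7.17, and 7.34 RPKM in the sham mice, 4.68, 3.85, and 6.54 RPKM in the ICH mice, and 4.50, 6.91, and 3.37 RPKM in the feb mice. All blood-injected mice were below the sham mice, with log2 fold changes of -0.57 in ICH (SE 0.261, limma unadjusted p = 0.0578, adjusted p = 0.413) and -0.63 in feb over sham mice (SE 0.261, limma unadjusted p = 0.0409, adjusted p = 0.582). Without feb replicate 3 the latter was -0.39. Of all genes tested, 19.4% had no overlap between ICH and sham mice, and 12.7% none between feb and sham mice. Oligodendrocyte markers moved in the same direction, 6 of 6 being lower in ICH and 5 of 6 in feb over sham mice with medians of -0.34 and -0.54, and 0 were called. The summed level of these markers was 626.6 to 919.2 RPKM in sham, 505.9 to 876.5 in ICH, and 495.5 to 790.6 in feb mice, with overlap between all groups. Their part in the Mmp15 levels was not tested. Mmp19 had 1.20 RPKM in ICH replicate 2 and 0.504 to 0.647 in the other 8 mice. Mmp11, Mmp21, Mmp23, and Mmp28 stayed under 1 RPKM in every mouse. The stromelysin Mmp3, which activates the Mmp9 precursor, did not pass the filter, and had 0.654 RPKM from 31 reads in ICH replicate 2 against 0 to 0.191 RPKM in the other mice. The collagenases Mmp8 and Mmp13 and the macrophage elastase Mmp12, which did not pass either, were each under 0.1 RPKM in every mouse.

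Genes that activate or restrain MMPs numbered 19, of which 18 passed the filter. In ICH over sham mice, limma called 0 of them (2.53% of all genes), and 3 had an unadjusted p under 0.05 (12.3%). Their median log2 fold change was 0.13. The largest values were 0.999 for A2m, a broad trap of proteases, 0.69 for Pcsk5, a proprotein convertase, and -0.46 for Adamts4, which cuts matrix proteoglycans. The A2m value rested on ICH replicate 2, with 13.0 RPKM against 0.757 to 2.78 in the other mice, and without it was -0.03. Pcsk5 was called without ICH replicate 3 (1.01), and Adamts4 was -0.28 without ICH replicate 2 and -0.72 without ICH replicate 3. In feb over ICH mice, 1 of the 18 was called (2.43% of all genes). At an unadjusted p under 0.05 in limma, 4 were lower and 1 was higher (11.1% of all genes in either direction). Plau, the urokinase that turns plasminogen into plasmin, an activator of MMP precursors, had 0.453, 1.02, and 0.619 RPKM in ICH and 0.242, 0.271, and 0.185 RPKM in feb mice, from 10 to 63 reads over all mice. It fell by 1.21 on the log2 scale (SE 0.282, limma unadjusted p = 0.002236, adjusted p = 0.253), with no overlap between the groups. Without ICH replicate 2 the difference was -0.93 and Plau was not called. Next in size were Adamts1 at -0.96, which was -0.54 without ICH replicate 2, and A2m at -0.92, which was 0.11 without it. In feb over sham mice, limma called 0 of the 18 (2.2% of all genes), and 4 had an unadjusted p under 0.05 (8.54%). The largest values were -0.77 for Plau, -0.76 for Adamts4, and -0.62 for Adamts1, the last pair being proteases that cut matrix proteoglycans. Adamts4 was -0.45 without feb replicate 3, and Adamts1 -0.37 without sham replicate 1.

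Of 23 genes for MMP substrates in vessels and matrix, all passed the filter. In ICH over sham mice, limma called 0 (2.53% of all genes), 2 had an unadjusted p under 0.05 (12.3%), and the median was 0.13. The largest values were -0.63 for Acan, -0.52 for Bcan, and 0.44 for Ncan, which code for proteoglycans around neurons. Acan was -0.12 without sham replicate 1 and -1.07, and then called, without sham replicate 2. Bcan was -0.17 without ICH replicate 2, and Ncan 0.30. In feb over ICH mice, 21 of the 23 were negative (15153 of the 29025 genes tested), 7 had an unadjusted p under 0.05, all lower (11.1% of all genes in either direction), and 1 was called (2.43%). Without ICH replicate 2, 20 were negative, 6 had an unadjusted p under 0.05, and 0 were called in limma. Nid2, which links laminin to collagen IV in basement membranes, had 1.20, 1.18, and 1.005 RPKM in the sham mice, 1.38, 1.64, and 1.06 RPKM in the ICH mice, and 0.588, 0.665, and 0.541 RPKM in the feb mice. It fell by 1.05 on the log2 scale in feb against ICH mice (SE 0.192, limma unadjusted p = 0.0004585, adjusted p = 0.197), and was not called without ICH replicate 2 (-0.91) or without feb replicate 3 (-0.99). Tnc, a matrix protein of injured tissue, was -0.96 and Ncan -0.76 in the same comparison, and Tnc was -0.55 without ICH replicate 2 and -0.58 without feb replicate 3, while without ICH replicate 1 (-1.25) or feb replicate 2 (-1.26) it was called. The median of the list was -0.19, against -0.01 over all genes. In feb over sham mice, limma called 0 (2.2% of all genes), and 3 had an unadjusted p under 0.05 (8.54%). The largest values were -0.82 for Nid2, -0.72 for Tnc, and -0.61 for Hspg2. Tnc was -0.35 without feb replicate 3 and -1.02, and then called, without feb replicate 2. Markers of several cell types were lower in feb than in ICH mice as well. All 8 choroid plexus markers were called lower. Of 6 markers each, 6 microglia markers were lower (5 at an unadjusted p under 0.05, and Aif1 called), 6 meningeal fibroblast markers (1, Igf2, called), 6 pericyte and smooth muscle markers (1 at an unadjusted p under 0.05), and 5 endothelial markers (3 at an unadjusted p under 0.05). Without ICH replicate 2, 6 microglia markers were lower (4 at an unadjusted p under 0.05 in limma, 0 called), and 4 endothelial markers (1 at an unadjusted p under 0.05). The counts of the other cell types named here did not change. The summed level of the endothelial markers was 37.2 to 45.4 RPKM in sham, 37.2 to 44.4 in ICH, and 29.0 to 37.2 in feb mice, and that of the microglia markers 40.8 to 54.3 RPKM, 51.1 to 84.7 RPKM, and 39.0 to 50.4 RPKM. Their part in the Nid2 and Plau differences was not tested.

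**Figure D5:**
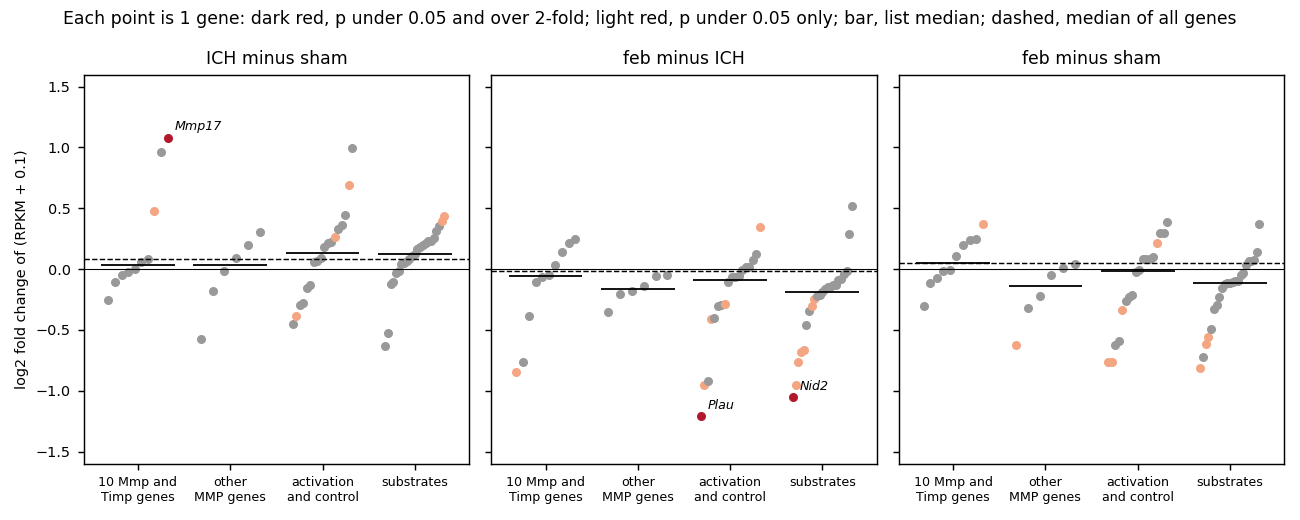
Log2 fold change of (RPKM + 0.1) of each gene (points) in 4 gene lists and the 3 comparisons, with list medians as bars and the median of all genes dashed. Dark red marks the called genes, which were Mmp17 in ICH over sham and Plau and Nid2 in feb over ICH mice.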

How the data were processed

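Total RNA from the brains of 9 mice was depleted of rRNA, tagged with UMIs and sequenced. The authors trimmed reads with Trimmomatic 0.36, merged reads of 1 UMI into consensus reads, aligned them to GRCm38, counted them on exons with featureCounts (Subread 1.5.1) and deposited RPKM values, which already scale out depth and exon length. The authors called genes with edgeR 3.12.1, which was not used here. Whole reads were recovered from RPKM, exon length and the smallest step, and 99.98% or more of values per mouse came within 0.05 of a whole number. A count of 3 reads on 1 kb of exon correspond to 0.102 to 0.130 RPKM. Intervals are for the difference between group means, from the limma standard error, which rests on the spread between mice.

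Limma 3.58.1 (R 4.3.3, eBayes with trend) was run on log2(RPKM + 0.1), with all 9 mice in 1 fit, no block, and genes of at least 0.1 RPKM in at least 3 mice. The test was checked on simulated reads with the same spread for all genes, which does not cover mice that stand apart within their group. Tables were made with Python 3.11.15, pandas 2.3.3 and scipy 1.17.1, and plots with matplotlib 3.10.9. Groups came from the labels. The 10 genes and all gene lists were chosen with earlier results of these data known. All 10 genes are described. Of the other MMP genes those passing the filter are named, and of the other pathway lists those called and the 3 with the largest log2 fold change in each comparison. Mmp3, Mmp8, Mmp12, and Mmp13 were named after their values were seen. Mmp1a, Mmp7, Mmp10, and Mmp27 were not analysed here, and 1 gene each of the cortex and MMP control lists is not reported here. Alternatives were pseudocounts of 1 and 0.01, no filter, at least 1 RPKM, equal medians, quantile normalization, a fit of 2 groups, eBayes without trend, a replicate block, voom on recovered reads, other call rules, and each mouse left out. The gene lists without ICH replicate 2 were added after the data were seen.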

Additional observations from a re-analysis of the deposited data

How the results depend on the processing

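Over 19 other settings, 528 of 564 log2 fold changes of the 10 genes kept their direction and their call. This count includes settings that cannot change a log2 fold change, so its direction was fixed in advance there. They are the other filters, the fit of 2 groups, eBayes without trend, the replicate block, and leaving out a mouse of the group not compared. Mmp17 in ICH over sham mice lost its call with a pseudocount of 1 (0.98), with equal medians (0.97), and without sham replicate 1 or 3, and its adjusted p ran from 0.019 to 0.731. Its unadjusted p stayed under 0.05 in all 19 settings, as it did for Mmp17 in feb over ICH mice (-0.89 to -0.78) and Mmp16 in ICH over sham mice (0.37 to 0.56), and in 15 of 19 for Mmp16 in feb over sham mice (0.26 to 0.45). Of the 10 genes, limma called 0 in ICH over sham mice with a pseudocount of 1, with equal medians, and by adjusted p, 2 by p alone, and 0 to 2 when 1 mouse was left out (0 without sham replicate 1 or 3, and Mmp17 and Timp1 without ICH replicate 3). By p alone, 1 gene was called in feb over ICH (Mmp17) and 1 in feb over sham mice (Mmp16). Mmp2 and Mmp9 had no value with a filter of at least 1 RPKM.

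Of 31 values that changed sign, 0 had an unadjusted p under 0.05 in limma. In ICH over sham mice these were Mmp2 at -0.0267, Mmp24 at -0.0480, and Timp4 at -0.1067 with equal medians, Mmp2 at -0.0430 and Timp4 at -0.0745 with quantile normalization, and Mmp24 at -0.0091 and Timp4 at -0.0673 with voom on recovered reads. In feb over sham mice they were Mmp9 at -0.0227 and Timp2 at 0.0218 with quantile normalization. When 1 mouse was left out, the ranges that crossed 0 in ICH over sham mice were -0.0592 to 0.1723 for Mmp2, -0.3254 to 0.2345 for Mmp9, -0.0017 to 0.1071 for Mmp24, -0.0929 to 0.0138 for Timp2, -0.1047 to 0.0532 for Timp3, and -0.0836 to 0.1352 for Timp4. In feb over ICH mice they were -0.2097 to 0.0021 for Mmp16, -0.0248 to 0.1075 for Timp2, and -0.1288 to 0.0291 for Timp3. In feb over sham mice they were -0.1099 to 0.4501 for Mmp9, -0.2797 to 0.0569 for Mmp14, -0.0658 to 0.0430 for Mmp24, -0.1093 to 0.4000 for Timp1, and -0.0754 to 0.0569 for Timp2.

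Equal medians moved the median of all genes in ICH over sham mice from 0.08 to -0.03 and the calls from 423 higher and 312 lower to 296 and 443 (317 and 406 with quantile normalization). In feb over sham mice it moved the median from 0.05 to -0.06 and the calls from 461 and 178 to 300 and 252 (295 and 245 with quantile normalization). Over all genes, 735 calls in ICH over sham mice became 158 with a pseudocount of 1, 346 with at least 1 RPKM, and 1288 without sham replicate 2. In feb over ICH mice 706 became 128 and 287 with the first pair of settings, and in feb over sham mice 639 became 91 and 263, 1136 without sham replicate 2, and 1016 without feb replicate 2. With the replicate number as a block, limma gave Mmp17 in ICH over sham mice 1.08 (unadjusted p = 0.001618), and the block changed no call of the 10 genes. Same-numbered mice did not deviate together (r of deviations -0.127 to 0.019). The methods describe no pairing, and these correlations with 3 mice per group cannot exclude one. Voom on recovered reads called 883, 823, and 763 of all genes in ICH over sham, feb over ICH, and feb over sham mice. Depth limits Mmp9, with 6 to 27 reads per mouse.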
